A study of Mus musculus with 8 samples.

Results

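The 10 genes described here set or remove DNA methylation or form the Polycomb machinery. Picked by symbol, they come from the transcriptome of mouse cells sorted as hematopoietic stem cells (HSCs). They were the DNA methyltransferases Dnmt1, Dnmt3a and Dnmt3b, the methylcytosine dioxygenases Tet1, Tet2 and Tet3, the histone methyltransferases Ezh1 and Ezh2, and the chromatin regulators Asxl1 and Bmi1. They are 10 of the 39107 genes that carried at least 1 count, and all 10 were among the 21902 genes with enough counts to test. Each gene was represented by its Ensembl transcript with the highest total count over the 8 libraries.

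The RNA came from bone marrow of 4 asrij knockout (KO) mice and 4 homozygous asrij floxed mice, all labelled 6 months old, with 1 library per mouse. Asrij, also called Ociad1, is an endosomal and mitochondrial protein, and the KO removes it from the whole body, so it was not confined to HSCs. The floxed mice carry loxP sites around the gene and served as controls. The cells are called long-term HSCs in the labels, and the methods of the study give the sort for sequencing as LSK CD150+ CD48+, whereas they give LT-HSCs as CD150+ CD48- for other assays, so which of these populations was sequenced is not settled here. Cd48 itself was at 42.6 to 55.2 CPM in floxed and 35.2 to 49.0 CPM in KO libraries. Replicates are numbered 1, 3, 4 and 5 in the floxed group and 2, 3, 4 and 5 in the KO group.

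DNA methylation is copied to the new strand after replication by Dnmt1 and is laid down afresh by Dnmt3a and Dnmt3b, while the Tet enzymes oxidize methylcytosine as a step towards its removal. Polycomb repressive complex 2 (PRC2) trimethylates lysine 27 of histone H3 through Ezh2 or Ezh1, and Polycomb repressive complex 1 (PRC1), which contains Bmi1, binds that mark and ubiquitinates histone H2A. Asxl1 is the cofactor of the deubiquitinase Bap1 and also interacts with PRC2. Mutations of the human genes DNMT3A, TET2 and ASXL1 are common in clonal hematopoiesis, and Bmi1 is needed for HSC self-renewal.

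Gene counts summed to between 23412830 and 44874879 per library, with floxed replicate 3 the deepest and floxed replicate 4 the shallowest. The targeted gene Ociad1 was measured at 41.6, 66.9, 36.7 and 31.3 CPM (counts per 1e6 of the TMM-scaled library) for floxed and at 15.2, 19.7, 12.5 and 11.7 CPM for KO, and it was called lower in the KO (log2 fold change -1.58, SE 0.27, edgeR adjusted p = 0.0249). The stem cell label was only partly borne out by markers: Kit was at 46.8 to 60.2 CPM, whereas Slamf1, which encodes the CD150 of the sort, was at 0.881 to 4.39 CPM and Procr stayed under 1 CPM in every library. Markers of other blood cells were abundant. Haemoglobin genes took 2.85% to 7.67% of the counts in floxed and 12.2% to 24.3% in KO libraries, the 12 erythroid markers summed to 27998 to 70710 CPM against 122579 to 295256 CPM, all 12 were above 0 in every library, and 3 (Hbb-bt, Hba-a1 and Klf1) were called higher in KO, where 1.22% of all genes were. The 6 megakaryocyte markers summed to 66.5 to 132 CPM in floxed and 221 to 264 CPM in KO, with 4 of the 6 called higher (Pf4, Itga2b, Gp9 and Ppbp). Of these 7 calls, those of Pf4 and Itga2b held when any single library was left out, and the other 5 held only without floxed replicate 3. The 10 neutrophil and monocyte markers summed to 16151 to 50834 CPM and 24553 to 31242 CPM, with 0 called and 0 at an unadjusted p under 0.05 by edgeR. The 7 T and NK markers summed to 66.5 to 90.3 CPM in floxed and 51.1 to 55.8 CPM in KO, with 1 called lower, where 1.75% of all genes were. The 9 B and plasma cell markers summed to 506 to 587 CPM and 525 to 561 CPM, with 1 called each way. Their part in the values below was not tested. In bulk RNA of this kind, fewer cells that express a gene and less RNA per cell cannot be told apart.

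None of the 10 regulators was called different between asrij KO and floxed libraries. The limit was an adjusted p under 0.05 over all genes tested by edgeR's quasi-likelihood test. DESeq2 and limma-voom also called 0 of the 10, beside 11.2% and 2.21% of all genes. Of all genes tested, edgeR called 2.97% in either direction, so a list of this length would hold few calls at that rate. With an absolute log2 fold change above 1.5 as well, edgeR called 1.19%. Tet2 alone had an unadjusted p under 0.05, against 21.8% of all genes. Of the 10 fold changes 9 were negative, and their median on the log2 scale was -0.09, beside -0.01 over all genes tested. Only Asxl1 had groups that did not overlap, a pattern held by 14.8% of all genes in either direction. No regulator had its KO libraries all above its floxed libraries, as 7.1% of all genes did.

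**Figure D1:**
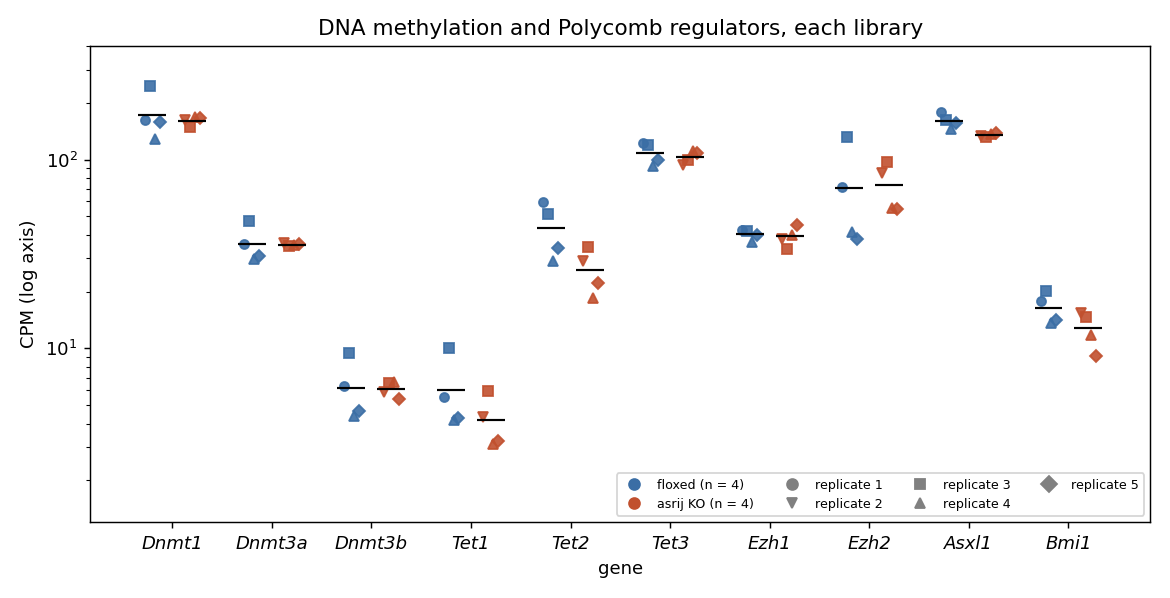
CPM of each regulator in every library, on a log axis, with floxed libraries in blue, asrij KO libraries in orange, a marker shape for each replicate number and black bars at group means (n = 4 per group). The 4 KO values of Asxl1, at 132 to 139 CPM, all lie under the 4 floxed values, and the groups of the other 9 genes overlap.

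**Figure D2:**
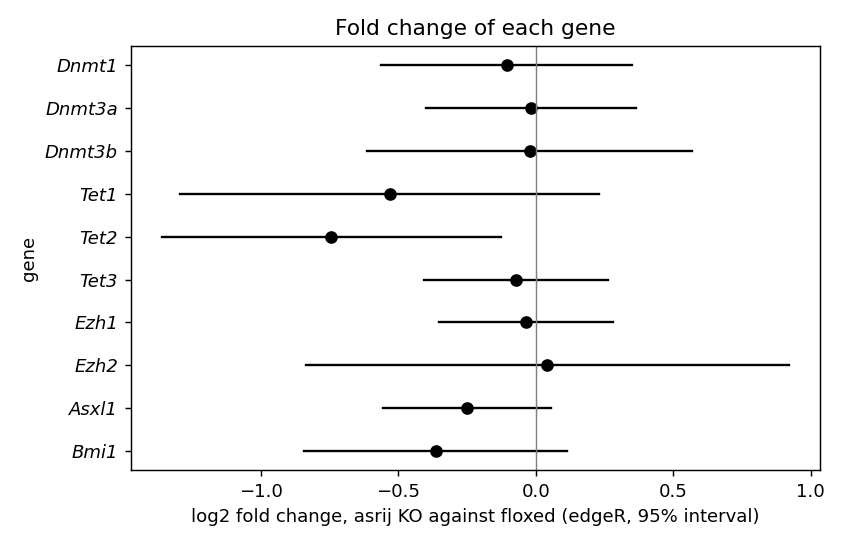
Log2 fold change of asrij KO against floxed for each regulator, with its 95% interval (n = 4 per group). The interval uses a standard error derived from the edgeR F statistic. Tet2 is the only gene whose interval, -1.36 to -0.13, lies to one side of 0.

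Among the maintenance and de novo methyltransferases the group means lay close together. Dnmt1 (chr9:20907209-20959888 of GRCm38, minus strand, 39 exons) was measured at 162, 244, 128 and 158 CPM across floxed replicates 1, 3, 4 and 5, against 162, 149, 167 and 165 CPM across KO replicates 2, 3, 4 and 5. All values below are listed in this order. The KO libraries stayed within a narrow band that lay inside the floxed range, and floxed replicate 3 stood highest. The floxed mean of 173 ± 49.8 CPM (SD, n = 4) stood against a KO mean of 161 ± 8.16 CPM (SD, n = 4), with a log2 fold change of -0.11 (SE 0.20, edgeR adjusted p = 0.809).

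Dnmt3a (chr12:3807030-3914443, plus strand, 23 exons), whose loss in HSCs impairs differentiation, was at 35.5, 47.5, 29.7 and 31.0 CPM in the floxed libraries and at 36.1, 34.8, 35.3 and 35.7 CPM in the KO libraries. Again the KO values were nearly level and floxed replicate 3 was the highest of all 8. The log2 fold change was -0.02 with a 95% interval of -0.40 to 0.36, so a change of either sign of about that size is not excluded by these libraries. Dnmt3b (chr2:153649450-153687730, plus strand, 23 exons), which has a larger role in the embryo than in adult blood, was detected at a low level of 6.35, 9.44, 4.38 and 4.64 CPM in floxed and 5.89, 6.58, 6.63 and 5.40 CPM in KO libraries. Its log2 fold change was also -0.02, with a 95% interval of -0.61 to 0.57. The close paralog Dnmt3c shares 11.8% of the 50-base stretches of the counted Dnmt3b transcript, so some of these reads could not be assigned with certainty. Within each library Dnmt3a carried 5.03 to 6.78 times the count of Dnmt3b in floxed and 5.28 to 6.62 times in KO.

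The Tet family held the gene with the smallest p of the list. Tet2 (chr3:133463679-133544390, minus strand, 11 exons), the Tet enzyme most often mutated in blood cancers, was measured at 59.5, 51.6, 29.2 and 34.0 CPM across the floxed libraries, against 29.0, 34.5, 18.4 and 22.1 CPM across the KO libraries. KO replicates 2, 4 and 5 lay under every floxed library, and KO replicate 3 lay above floxed replicates 4 and 5. Floxed libraries averaged 43.6 ± 14.4 CPM (SD, n = 4), and KO libraries averaged 26.0 ± 7.17 CPM (SD, n = 4). The fit across all genes gave a log2 fold change of -0.74, a ratio of 0.597 (SE 0.28, edgeR adjusted p = 0.156). The exact two-sided permutation test over the 70 labelings of the libraries gave p = 0.114, where the smallest p it can give is 0.0286.

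Tet2 also differed between replicate numbers. Floxed replicates 1 and 3 averaged 1.76 times floxed replicates 4 and 5, and KO replicates 2 and 3 averaged 1.57 times KO replicates 4 and 5. Within replicates 1 to 3 the KO minus floxed difference of mean log2(CPM + 1) was -0.79, and within replicates 4 and 5 it was -0.62. With a term that separates numbers 4 and 5 from 1 to 3, the log2 fold change was -0.72 and Tet2 was called (edgeR adjusted p = 0.00699), in a fit that called 18.5% of all genes and 9.66% as lower. A block for each replicate number used only numbers 3, 4 and 5, which both groups hold. Floxed replicate 1 and KO replicate 2 were thus left out of that fit, where the log2 fold change of Tet2 was -0.60 (edgeR adjusted p = 0.154).

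The other Tet genes were not called either. Tet1 (chr10:62804577-62899118, minus strand, 13 exons), best known from embryonic stem cells, was the least abundant regulator per length, at 5.51, 10.005, 4.17 and 4.29 CPM in floxed and 4.33, 5.93, 3.12 and 3.22 CPM in KO libraries. It repeated the Tet2 pattern of lower values in replicates 4 and 5 of both groups, and its log2 fold change was -0.53 (SE 0.34, edgeR adjusted p = 0.402). Tet3 (chr6:83362373-83441675, minus strand, 11 exons) was measured at 122, 119, 92.4 and 99.7 CPM in floxed and 93.1, 100.0, 111 and 108 CPM in KO libraries, with a log2 fold change of -0.07 (SE 0.15, edgeR adjusted p = 0.824). Tet3 carried 2.05 to 3.16 times the count of Tet2 in floxed libraries and 2.90 to 6.04 times in KO libraries, and these ranges overlap.

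For Tet2 and Asxl1, the gene with the smallest p and the gene whose groups did not overlap, the 250 bases before the RefSeq transcription start are shown 5′ to 3′ on the gene's strand, to show what sequence lies in front of each (GRCm38.p6). Capitals mark letters found on either strand of the GC box GGGCGG, the ETS motif CCGGAAG, the CCAAT box CCAAT, the E-box CACGTG, the TATA box TATAAA and the E2F octamers TTTCGCGC, TTTGGCGC, TTTCCCGC and TTTGCCGC. A match describes the letters only. The Tet2 window is chr3:133544391-133544640 on the minus strand, and the Asxl1 window is chr2:153345580-153345829 on the plus strand, where the noncoding gene 2500004C02Rik begins on the opposite strand.
Tet2: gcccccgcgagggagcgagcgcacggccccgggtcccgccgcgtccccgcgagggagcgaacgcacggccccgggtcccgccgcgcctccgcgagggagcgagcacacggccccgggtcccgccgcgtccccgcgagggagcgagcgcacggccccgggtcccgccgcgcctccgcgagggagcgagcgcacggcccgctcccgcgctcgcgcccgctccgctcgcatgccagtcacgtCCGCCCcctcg
Asxl1: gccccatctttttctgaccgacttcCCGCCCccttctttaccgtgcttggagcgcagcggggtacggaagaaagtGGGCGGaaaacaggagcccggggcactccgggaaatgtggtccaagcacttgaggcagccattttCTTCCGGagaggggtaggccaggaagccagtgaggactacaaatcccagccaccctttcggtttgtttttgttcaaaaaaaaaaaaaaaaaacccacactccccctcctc

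The Tet2 window held 51 CpG dinucleotides in its 250 bases, a number reached by 0.067% of the 32851 mouse promoters of the same length, whose median was 6. Asxl1 held 11 and Bmi1 21. Of the 14 annotated starts of the 10 genes, 13 had more CpG than that median, the exception being 1 of the 3 starts of Dnmt1. A GC box occurred at 10 of the 14 starts, from 8 of the 10 genes, beside 32.7% of all promoters. The CCAAT box occurred at 4 starts, from 3 genes (Dnmt1, Ezh2 and Tet3), beside 33.8% of promoters. The ETS letters occurred at 1 start (Asxl1), beside 6.91%, and an E2F octamer at 1 start (Dnmt1), beside 1.86%. The E-box occurred at 2 starts (1 of Bmi1 and 1 of Dnmt3a), beside 6.02% of promoters, and no TATA box was found in these windows.

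Among the Polycomb genes, Ezh2 varied most between libraries. Ezh2 (chr6:47530139-47595030, minus strand, 20 exons), the PRC2 methyltransferase of dividing cells, was measured at 71.9, 133, 41.5 and 37.8 CPM in floxed and 85.0, 97.4, 55.2 and 54.7 CPM in KO libraries. Floxed replicate 3 was 3.50 times floxed replicate 5, the widest ratio within a group among the 10 genes. In both groups replicates 4 and 5 were the lowest, by 2.58 times in floxed and 1.66 times in KO when averaged against the other pair. The log2 fold change was 0.04 with a 95% interval of -0.84 to 0.92, the widest of the list.

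Proliferation markers were set beside Ezh2. The summed level of the 16 proliferation markers was 2612, 4969, 2168 and 2163 CPM across the floxed libraries and 3728, 3637, 3171 and 3128 CPM across the KO libraries. Floxed replicate 3 was the highest there too. Mki67 alone gave 962, 2393, 727 and 756 CPM of the floxed sums and 1127, 1082, 1015 and 991 CPM of the KO sums. Mki67 was also the only 1 of the 16 with a negative log2 fold change (-0.20), and the list median was 0.46. An unadjusted edgeR p under 0.05 was reached by 6, all higher in KO, beside 21.8% of all genes in either direction. The part of proliferation in the Ezh2 values was not tested. Birc5, 1 of the 16, which acts at mitosis, was called higher in KO (log2 fold change 0.99, SE 0.22, edgeR adjusted p = 0.0475), where 1.22% of all genes were. The call was lost with the replicate block, which also leaves out floxed replicate 1 and KO replicate 2. It was also lost in all fits that left out 1 library except the one without floxed replicate 3 (edgeR adjusted p = 0.00128, up to 0.135 in the others). The 2 protein-coding genes whose log2(CPM + 1) followed Ezh2 most closely over the 8 libraries, among 12941 compared, were Amy1 (Pearson's r = 0.998) and Kif11, a mitotic kinesin (r = 0.997).

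Ezh1 (chr11:101191115-101226463, minus strand, 21 exons), the PRC2 methyltransferase of resting cells, was steady by comparison. It stood at 42.4, 41.7, 36.7 and 40.0 CPM in floxed and 38.0, 33.7, 40.1 and 45.3 CPM in KO libraries, and its log2 fold change was -0.03 (SE 0.14, edgeR adjusted p = 0.918). Each library's count of Ezh2 was 1.69, 3.18, 1.13 and 0.946 times that of Ezh1 in floxed and 2.24, 2.89, 1.38 and 1.21 times in KO. The ratio thus separated replicates 1 to 3 from replicates 4 and 5 in both genotypes, and the genotypes overlapped.

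Asxl1 (chr2:153345829-153404007, plus strand, 12 exons) was measured at 179, 163, 145 and 156 CPM in floxed and 134, 132, 137 and 139 CPM in KO libraries. Every KO library was under every floxed library, and the highest KO and the lowest floxed value were 139 and 145 CPM. Floxed libraries averaged 161 ± 14.3 CPM (SD, n = 4), and KO libraries averaged 135 ± 3.10 CPM (SD, n = 4). The exact two-sided permutation test gave p = 0.0286, the smallest it can give with these groups, and the fit across all genes gave a log2 fold change of -0.25 (SE 0.14, edgeR adjusted p = 0.324). A KO group wholly under the floxed group was held by 7.67% of all genes tested.

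Bmi1 (chr2:18677018-18686629, plus strand, 10 exons), the PRC1 subunit that represses the Cdkn2a locus, was at 17.7, 20.1, 13.6 and 14.2 CPM in floxed and 15.4, 14.7, 11.8 and 9.13 CPM in KO libraries. The lowest values were those of KO replicates 4 and 5, and the KO replicates 2 and 3 lay among the floxed libraries. Its log2 fold change was -0.36 (SE 0.21, edgeR adjusted p = 0.361). The loci Gm5946 and AC114652.1 share 18.5% of the 50-base stretches of the counted Bmi1 transcript, which leaves part of its count uncertain. Cdkn2a itself was barely detected, at 0.246 to 0.553 CPM over the 8 libraries.

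The order of the libraries was compared between the regulators. Floxed replicate 3 was the highest of the 8 libraries for 6 of the 10 (Dnmt1, Dnmt3a, Dnmt3b, Tet1, Ezh2 and Bmi1), whereas it was the highest for 23.3% of all genes tested. The KO libraries spanned a narrower range of log2(CPM + 1) than the floxed libraries for 8 of the 10, the exceptions being Ezh1 and Bmi1, which is near the 72.1% of all genes tested that did so. Without floxed replicate 3, the log2 fold change of Ezh2 was 0.55 (edgeR adjusted p = 0.242), that of Dnmt3b 0.27 and that of Dnmt1 0.12, and the last pair then had the opposite sign. None of the 10 was called when any single library was left out.

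Ranked by counts per kilobase of gene span, scaled to a common total within each library, the mean order of levels was Dnmt1, Asxl1, Bmi1, Tet3, Ezh2, Ezh1, Tet2, Dnmt3a, Dnmt3b and Tet1. The mean level ran from 8.31 for Dnmt1 to 0.149 for Tet1 on this scale. The ranges over the 8 libraries of each pair of neighbours in that order overlapped. Within libraries the order held in all 8 for Asxl1 over Bmi1, Ezh1 over Tet2, Dnmt3a over Dnmt3b and Dnmt3b over Tet1, but in 3 of 8 for Ezh2 over Ezh1 and in 5 of 8 for Tet3 over Ezh2. On this scale the KO group had the same order as the floxed group for all 10 genes. Per kilobase of spliced transcript, 6 of the 10 ranks were the same as per span, and Ezh2 came second and Bmi1 sixth. On that scale the group orders differed, with Tet2 at rank 6 and Dnmt3a at rank 8 in floxed and the reverse in KO.

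The counts per transcript show where along a gene the reads lay. Transcripts of one gene with the same ends but other exons carried the same count, as for the 3 longest transcripts of Ezh2, so a count covers a whole span and its introns. In 4 of the 10 genes, Dnmt1, Dnmt3a, Tet2 and Ezh2, an annotated transcript lies within the last 30% of the span and ends with the gene, and its count gives the share at the 3′ end. For Ezh2, the last 10597 bases (chr6:47530139-47540735) held 33.5%, 33.5%, 41.0% and 35.9% of the count in floxed and 48.6%, 43.7%, 48.6% and 45.9% in KO libraries. Every KO library was above every floxed library, by 10.8 percentage points between the means (exact permutation test, two-sided, p = 0.0286, the smallest it can give).

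Over 1467 genes with such a span, 9.27% had every KO library above every floxed one, and in 9.95% the groups did not overlap in either direction. The median share of these genes was 40.3%, 35.4%, 51.8% and 46.3% in floxed and 49.7%, 48.2%, 51.4% and 51.0% in KO libraries (exact permutation test, two-sided, p = 0.171). Floxed replicates 1 and 3 thus had the least 3′-weighted counts of the 8 libraries, and the part of this share, which can move with RNA quality, in the regulators' values was not tested beyond the covariate below.

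Dnmt1 and Tet2 showed the same direction of 3′ share with overlapping groups. The last 1762 bases of the Dnmt1 span held 16.1%, 12.9%, 32.4% and 27.2% of the count in floxed and 36.0%, 30.9%, 38.8% and 38.2% in KO libraries (exact permutation test, two-sided, p = 0.0571). The 3′ stretch of 11137 bases in Tet2 held 59.1%, 51.2%, 80.5% and 74.3% in floxed and 85.9%, 79.0%, 82.5% and 84.9% in KO libraries (exact permutation test, two-sided, p = 0.0571). For Dnmt3a the share was 83.4% to 89.8% in floxed and 85.5% to 88.7% in KO, and floxed and KO libraries were mixed. Counted over the 3′ stretch alone, the log2 fold change was -0.36 for Tet2, 0.71 for Dnmt1 and 0.45 for Ezh2, and counted over the rest of the gene it was -1.84, -0.42 and -0.24 (edgeR adjusted p from 0.0722 to 0.786 over these 6 values). The sign for Dnmt1 and Ezh2 therefore depended on the stretch counted, and that for Tet2 did not.

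**Figure D3:**
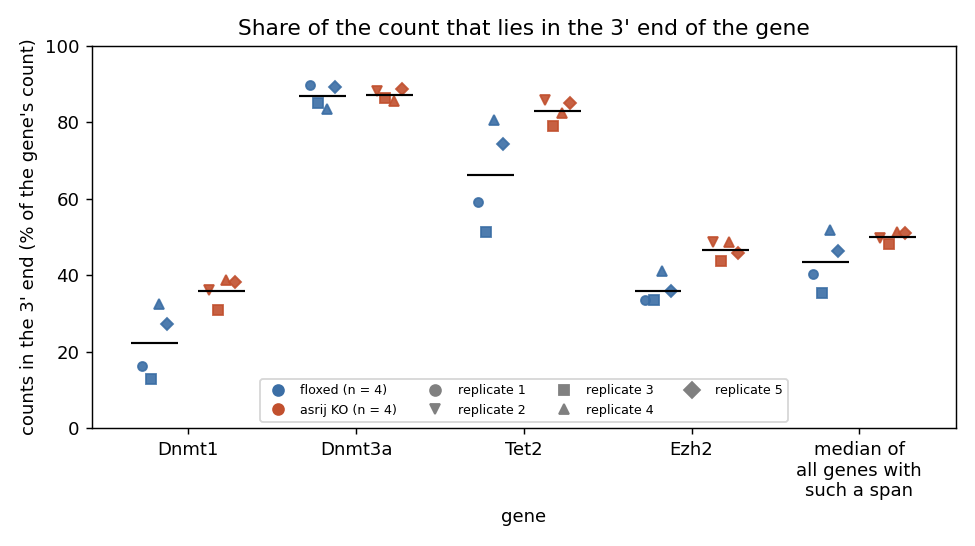
Share of each gene's count that lies in its 3′ end, in percent, for the 4 regulators with an annotated 3′ transcript and for the median of 1467 genes, with floxed libraries in blue, asrij KO libraries in orange and black bars at group means (n = 4 per group). The 4 KO values of Ezh2, from 43.7% to 48.6%, lie above the 4 floxed values, and the groups overlap for the other genes and for the median.

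With the median 3′ share of each library as a covariate, Ezh2 was called higher in KO (log2 fold change 0.92, edgeR adjusted p = 0.0479), in a fit that called 10.5% of all genes, and Tet2 had a log2 fold change of -0.25 (edgeR adjusted p = 0.491). In the longest transcript nested in each counted one, the groups did not overlap for 1 of the 10 genes, beside 8.51% of 9261 protein-coding genes with such a transcript in either direction, and 6.31% with the KO lower. That gene was again Ezh2, where the nested span held 91.4% ± 2.06 (SD, n = 4) of the count in floxed and 88.0% ± 0.949 (SD, n = 4) in KO (exact permutation test, two-sided, p = 0.0286). This span (chr6:47530541-47577660) leaves out both ends of the gene and overlaps the 3′ stretch of Ezh2 above. Its share is drawn from the same counts as the 3′ share and is not an independent result.

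Partners and targets of the regulators were read from 8 lists of 136 genes, of which 116 were tested. Of these, 2 were called, both among the 21 tested DNA methylation partners, 1 higher and 1 lower, beside a background of 1.22% of all genes called higher and 1.75% lower. An unadjusted edgeR p under 0.05 was reached by 24 of the 116, beside 21.8% of all genes. DESeq2 called 10 of the 116, beside 11.2% of all genes, and limma-voom called 1, beside 2.21%, so these shares lay near or under the background. Gadd45a, a stress-induced gene also linked to active demethylation, was measured at 75.1, 65.2, 91.4 and 85.7 CPM in floxed and 137, 127, 137 and 139 CPM in KO libraries, and was called higher (log2 fold change 0.77, SE 0.15, edgeR adjusted p = 0.0329). Every KO library was above every floxed library. The noncoding gene E230016M11Rik overlaps it with 9951 counts, and whether the counting used strand is not given in the sources used here.

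Tdg, the glycosylase that excises oxidized methylcytosine after the Tet step, was at 24.7, 6.37, 29.0 and 28.0 CPM in floxed and 7.20, 6.63, 3.69 and 4.78 CPM in KO libraries. It was called lower (log2 fold change -1.97, SE 0.44, edgeR adjusted p = 0.0459), although floxed replicate 3 lay among the KO libraries. Loci such as Tdg-ps and Gm9855 share 66.3% of the 50-base stretches of its transcript, so the count is uncertain. Both calls were lost with the replicate block (edgeR adjusted p = 0.206 for Tdg and 0.149 for Gadd45a, the highest over the settings run). That fit also left out floxed replicate 1 and KO replicate 2. Both calls were also lost in all fits that left out 1 library except the one without floxed replicate 3, where the edgeR adjusted p was 0.000708 and 0.00542.

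**Figure D4:**
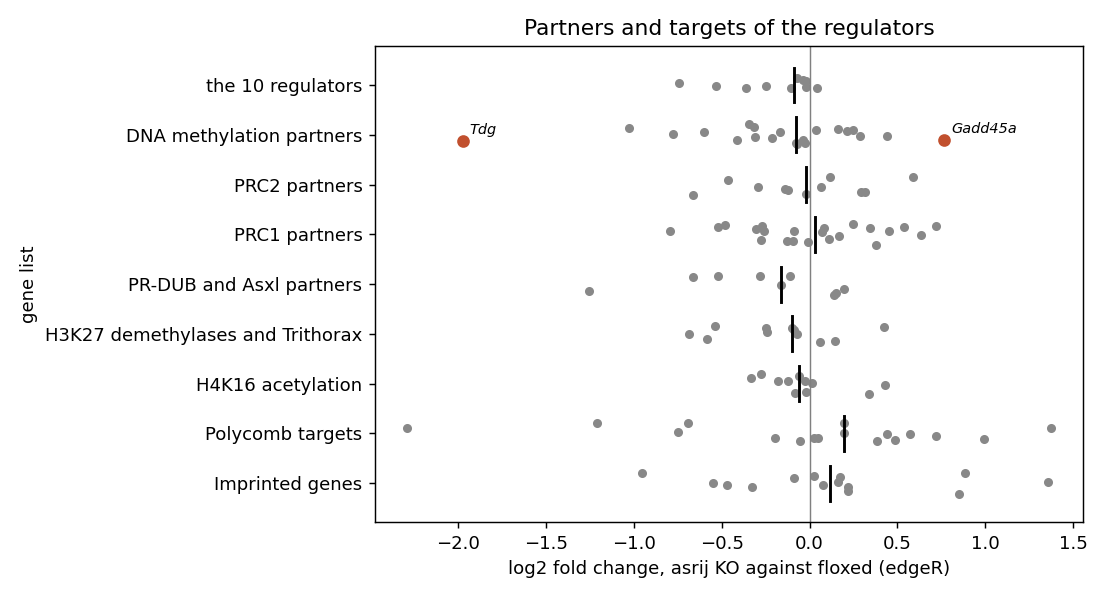
Log2 fold change of asrij KO against floxed for the 10 regulators and for the tested genes of 8 lists of partners and targets, 1 point per gene, with genes called at an adjusted p under 0.05 in orange and named, and a black bar at each list's median. Gadd45a at 0.77 and Tdg at -1.97 are the called genes, and the medians lie between -0.16 and 0.19.

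No gene of the PRC2 partners was called, of 11 tested, and their median log2 fold change was -0.02. The PRC2 core subunits Eed and Suz12 had log2 fold changes of 0.12 and -0.02. Rbbp4, a histone chaperone of PRC2 and other complexes, had the smallest p of the list and was above every floxed library in every KO library (log2 fold change 0.59, edgeR adjusted p = 0.155), and it alone of the list had an unadjusted p under 0.05. The gene Gm26722 overlaps it with 24275 counts. Of the 22 PRC1 partners, 0 were called by edgeR and 7 had an unadjusted p under 0.05, 4 higher and 3 lower. Cbx7, the chromodomain subunit linked to HSC self-renewal, was at 19.5, 23.8, 18.8 and 23.7 CPM in floxed and 29.1, 29.98, 41.2 and 41.3 CPM in KO libraries (log2 fold change 0.72, SE 0.18, edgeR adjusted p = 0.0592). It shares its locus with Apobec3, which carried 43478 counts, and the next by p, Yaf2, had a log2 fold change of -0.52 (edgeR adjusted p = 0.0893).

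None of the 9 partners of Asxl1 and Bap1 was called, 1 (Foxk1) had an unadjusted p under 0.05, and their median was -0.16, the lowest of the 8 lists. The forkhead factors Foxk1 and Foxk2, which recruit Bap1 to DNA, were under every floxed library in every KO library, as Asxl1 was, with log2 fold changes of -0.52 (edgeR adjusted p = 0.105) and -0.28 (edgeR adjusted p = 0.240). Among 11 H3K27 demethylases and Trithorax genes, which oppose Polycomb, 0 were called and 4 had an unadjusted p under 0.05. Of these 4, 1 was higher and 3 were lower in KO. Kmt2c had a log2 fold change of -0.69 (edgeR adjusted p = 0.153) and Ash2l of 0.42 (edgeR adjusted p = 0.210). The summed level of that list was 732 to 925 CPM in floxed and 622 to 718 CPM in KO libraries, with no test run on the sums. It is printed as the only sum of the 8 lists whose group ranges did not overlap, and those of every other list overlapped. Among single genes tested, 14.8% had groups that did not overlap, which is a share of genes rather than of sums. For the 11 genes of histone H4 lysine 16 acetylation, 0 were called and the smallest p belonged to Msl2, a subunit of the MSL acetyltransferase complex (log2 fold change -0.33, edgeR adjusted p = 0.203), followed by Mcrs1 (log2 fold change 0.43), which shares 55.1% of its 50-base stretches with other loci. Only Msl2 had an unadjusted p under 0.05.

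Among 30 known Polycomb targets, 17 had enough counts to test and 0 were called, with a median log2 fold change of 0.19 and 5 genes at an unadjusted p under 0.05. The homeobox gene Hoxa5 was near the detection limit, at 0.284 to 1.32 CPM in floxed and 1.46 to 2.13 CPM in KO libraries (log2 fold change 1.37, edgeR adjusted p = 0.134), and it overlaps other transcripts of the Hoxa cluster. Of 20 imprinted genes, whose expression depends on allelic DNA methylation, 14 were tested, 0 were called and 1, Igf2r, had an unadjusted p under 0.05. Igf2r, the imprinted receptor that clears Igf2, was measured at 46.0, 49.3, 42.5 and 52.2 CPM in floxed and 33.9, 31.2, 33.4 and 31.2 CPM in KO libraries, with every KO library under every floxed library (log2 fold change -0.55, SE 0.13, edgeR adjusted p = 0.0530). The antisense transcript Airn overlaps it with 5019 counts, and Sgce, the next by p, had a log2 fold change of 0.85 (edgeR adjusted p = 0.280).

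Each regulator had close followers among the protein-coding genes in log2(CPM + 1) over the 8 libraries, given as a description. Tet2 was most like Rps6ka3 (Pearson's r = 0.994) and Trim33 (r = 0.992), and Dnmt1 was most like Tsc1 (r = 0.987) and Cad (r = 0.980). Asxl1 was followed by Sptan1 (r = 0.977) and Ankfy1 (r = 0.9746), Bmi1 by Slc25a32 (r = 0.982) and Blzf1 (r = 0.980), and Dnmt3b by Edrf1 (r = 0.996) and Sun1 (r = 0.985). Dnmt3a was closest to Cdan1 (r = 0.991) and Tmem131l (r = 0.989), Tet1 to Zfp160 (r = 0.986) and Zfp976 (r = 0.986), Tet3 to Mapk1ip1l (r = 0.956) and St7l (r = 0.931), and Ezh1 to Pygm (r = 0.923) and Ttll1 (r = 0.889). The points of each pair share library and depth, and no test attaches to them.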

How the data were processed

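The authors made 1 NEBNext Ultra RNA library from the cells sorted as LT-HSCs of each of 8 mice, 4 per genotype. The reads were checked with FastQC, trimmed with Trim Galore and aligned to GRCm38/mm10 reference transcripts with Bowtie2, per the submitters' processing notes and the methods of the study. The counting tool, the annotation release, the use of strand and tool versions are not given in the sources used here. The files as deposited hold raw read counts for 138930 Ensembl transcripts in each library, tab-separated under a comma-separated name in 7 of 8 cases. For those 7 the unit was recorded under the label other, since only their separator differs from the count table of KO replicate 3.

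Transcripts were mapped to GENCODE M21 (GRCm38), where 138789 were found. A gene's count was that of its transcript with the highest total. Counts were filtered with filterByExpr, scaled by TMM and tested with edgeR 4.0.16 (glmQLFTest, no covariates, Benjamini-Hochberg over 21902 genes). A gene was called at an adjusted p under 0.05, and the study's further limit of an absolute log2 fold change above 1.5 is given as an alternative. DESeq2 1.42.0 and limma 3.58.1 (voom) were alternatives. Single values were compared by an exact permutation test over 70 labelings in Python 3.11.15. The test used log2(CPM + 1) for levels and the percentages themselves for the 3′ and nested shares. The scripts were tested on simulated data. Total counts ranged from 23412830 to 44874879 over genes, and intervals and SEs cover the spread between these libraries, 1 per mouse.

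The 10 genes were chosen by symbol, and they and all lists were chosen with earlier results of these data known. Named from each list were all genes called, at most 4, and otherwise the 2 with the smallest p at a mean of at least 1 CPM. A gene that this rule names is not reported here. Deviations from group means over genes correlated at 0.427, 0.454 and 0.707 between same-numbered libraries (3, 4 and 5). A block by number was therefore run as an alternative setting on those numbers only, and the main fit used no pairing. Libraries of other numbers correlated as highly (4 with 5 at 0.446 and 0.711, floxed 1 with KO 3 at 0.620), and the labels do not say what a number marks. Promoter sequences are from RefSeq (GRCm38.p6) and matched all 10 genes.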

Additional observations from a re-analysis of the deposited data

Results flagged for a closer look

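Some libraries stood apart in a group of 4, by a gap larger than Dixon's 95% critical value. Over 80 such groups 2 were found, where chance gives about 1 in 20, or 4. Tdg was low in floxed replicate 3, at a log2(CPM + 1) of 2.88 against 4.68 to 4.90 in the other floxed libraries, which is 6.37 CPM against 24.7 to 29.0 CPM. The erythroid marker Hba-a1 was low in floxed replicate 1, at a log2(CPM + 1) of 12.8 against 13.97 to 14.06. None of the 10 regulators had such a library in either group.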

How the results depend on the processing

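The count of regulators called, 0, held in all but 2 of the settings run. It was 1 (Tet2) with a block for numbers 4 and 5 and 1 (Ezh2) with the 3′ share as a covariate, which was chosen after seeing the data, and 0 when any 1 library was left out. The count of all genes called moved from 651 to 2447 with DESeq2, 48 with the replicate block, 4060 with the block for numbers 4 and 5, 2305 with the 3′ covariate and 261 with the fold limit, and to 61 to 3875 without 1 library. It was 3875 without floxed replicate 3, 61, 264 and 97 without floxed replicates 1, 4 and 5, and 77, 96, 66 and 63 without KO replicates 2, 3, 4 and 5. The replicate block also left out floxed replicate 1 and KO replicate 2, so blocking and the loss of libraries cannot be told apart there. The cause of these moves was not tested. Called partners and targets numbered 2, and 4 with no scaling factor, 4 with TMM without haemoglobin and immunoglobulin genes, 5 with a filter of 1 CPM in 4 libraries, 10 with DESeq2, 1 with limma-voom, 0 with the replicate block, 21 with the block for numbers 4 and 5, 0 without overlapping genes (fewer genes tested) and 0 to 18 without 1 library (18 without floxed replicate 3, 0 in each other case). With no scaling factor the median log2 fold change of all genes was -0.20, against which values under that setting should be read.

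Tet2, Asxl1 and Bmi1 kept a negative log2 fold change in every setting in which they had a value, from -1.84 to -0.25, -0.45 to -0.13 and -0.55 to -0.08. The others changed sign in some, and of these only Ezh2 was called in any. Dnmt1 was 0.71 over the 3′ end, 0.25 with the 3′ covariate and 0.22 within numbers 4 and 5. Dnmt3a was 0.030 with no filter, 0.00030 with limma-voom, 0.019 with the replicate block, 0.26 with the covariate and 0.22 within numbers 4 and 5. Dnmt3b was 0.033 with no filter, 0.045 summed over transcripts, 0.11 with the replicate block, 0.025 with the block for numbers 4 and 5, 0.49 with the covariate and 0.34 within numbers 4 and 5. Tet1 was 0.090 with the covariate. Tet3 was 0.060 with the replicate block, 0.088 with the covariate and 0.19 within numbers 4 and 5. Ezh1 was 0.0061 with no filter, 0.017 with the replicate block, 0.015 with the covariate and 0.15 within numbers 4 and 5. Ezh2 was -0.17 with no scaling factor, -0.24 over the rest of the gene and -0.10 within numbers 1 to 3. Without 1 library the ranges were -0.22 to 0.12 for Dnmt1, -0.10 to 0.16 for Dnmt3a, -0.15 to 0.27 for Dnmt3b, -0.14 to 0.015 for Tet3, -0.087 to 0.035 for Ezh1 and -0.16 to 0.55 for Ezh2. The replicate block changed no call among the regulators.

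Per kilobase of spliced length 6 of the 10 level ranks stayed, and without 1 library 8 to 10. The nested share separated the groups for 0 genes with the second longest transcript and for 1 to 2 without 1 library, 2 being without KO replicate 2. Genes that overlap another had no value in the setting without overlapping genes. Depth limits Tet1 and Dnmt3b most, with 1522 and 1783 counts over 8 libraries.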
